A study of Mus musculus with 24 samples.

Results

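The resting difference between a macrophage line with a Nur77 construct and one with a GFP construct was read from the 8 libraries collected without LPS, of 24 in the series. Nr4a1 encodes Nur77, a nuclear receptor, and LPS is a bacterial ligand of Toll-like receptor 4. Both groups were RAW 264.7 cells, an established mouse macrophage line, that carried a doxycycline-inducible construct. The Nur77 line before LPS (4 libraries) received 50 ng/ml doxycycline for 18 h and no LPS, and the GFP line before LPS (4 libraries) received the same doxycycline and no LPS. All 8 libraries were included, chosen by their labels and not by any measured value, and genes were compared across the whole table. The other 16 libraries, collected after 1 or 5 h of 500 ng/ml LPS, entered the fit for a shared estimate of spread and served to ask which resting differences were still present after LPS. Each construct was present in a single stable line, with no second line and no culture without doxycycline among the libraries used here, so an effect of the Nur77 protein and any other difference between the derived lines cannot be told apart. Whether the replicates were separate cultures is not stated in the labels. The p-values measure only the spread between libraries of a group, estimated over all 24 libraries, which may be of technical origin.

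Nur77, with its relatives Nurr1 (Nr4a2) and NOR-1 (Nr4a3), is an immediate early gene product and an orphan receptor that needs no known ligand to act. It binds as a monomer to a DNA element called NBRE, and it can also act on other transcription factors without binding DNA itself. In macrophages it is known for restraint of inflammatory gene expression and for effects on metabolism. The study's title places the genes under AP-1 (dimers of Fos and Jun proteins) at the centre of its question.

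Counts over 25160 genes summed to 11137344 to 14811240 per library in the Nur77 line and 11015513 to 21893987 in the GFP line, and 12198 genes had enough counts to be tested. Levels are counts per 1000000 (CPM) adjusted by edgeR's trimmed mean of M-values, which compare libraries and not genes, as mean ± SD with n = 4 per line. Calls were made at an adjusted p below 0.05 in edgeR's quasi-likelihood test, with Benjamini-Hochberg adjustment over all genes tested. The first principal component of the 8 libraries held 71.9% of the variance and separated the lines, with the Nur77 line at 33.8 to 35.7 and the GFP line at -35.8 to -34.3. The second held 8.02% and separated replicates 1 and 3 from replicates 2 and 4 in both lines. Log2 CPM correlated at 0.992 to 0.993 within the Nur77 line and 0.989 to 0.994 within the GFP line, and at 0.961 to 0.966 between the lines.

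Both lines expressed the macrophage markers. Cd68, an endosomal glycoprotein gene, averaged 753 CPM in the Nur77 line and 1186 CPM in the GFP line, Csf1r, the receptor for macrophage colony-stimulating factor, 547 CPM in the Nur77 line and 450 CPM in the GFP line, and Itgam, the integrin chain CD11b, 620 CPM in the Nur77 line and 632 CPM in the GFP line. Epithelial, fibroblast, neutrophil and mast cell markers were near 0: epithelial markers summed to 0 to 0.138 CPM in the Nur77 line and 0 to 0.169 CPM in the GFP line, fibroblast markers to 1.10 to 2.58 CPM in the Nur77 line and 1.44 to 2.30 CPM in the GFP line, and neutrophil and mast cell markers to 1.24 to 2.58 CPM in the Nur77 line and 3.34 to 4.38 CPM in the GFP line. The neuronal and neurosecretory list was not near 0, at 106 to 111 CPM in the Nur77 libraries and 66.2 to 82.0 CPM in the GFP libraries. Its members are described further below. Lymphocyte markers summed to 5.56 to 6.23 CPM in the Nur77 line and 7.60 to 8.33 CPM in the GFP line, and the part of these differences in the results was not tested.

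The Nr4a1 transcript was at a low level in both lines. Its libraries read 2.74, 3.71, 3.27 and 3.37 CPM in the Nur77 line and 3.12, 2.46, 3.20 and 3.34 CPM in the GFP line. The groups overlapped, and its log2 fold change, 0.10 with an SE of 0.40, did not pass the test (adjusted p = 0.868). Neither the species nor the sequence of the construct is stated in the labels, so this gene does not check them. Nr4a2 levels were lower in the Nur77 line: 2.42, 2.75, 2.97 and 2.08 CPM, against 6.59, 4.79, 5.47 and 5.15 CPM in the GFP line. Its groups did not overlap and its log2 fold change was -1.09 (SE 0.16, adjusted p = 5.25e-06). Nr4a3 was at 0.270 ± 0.15 CPM in the Nur77 line and 0.216 ± 0.18 CPM in the GFP line, a difference that was not called (adjusted p = 0.614).

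The difference between the lines was broad. Of the genes tested, 4870 were called (39.9%), 2472 of them higher in the Nur77 line (20.3%) and 2398 lower (19.7%). Larger changes leaned to lower levels in the Nur77 line: 311 genes were higher by a log2 fold change of at least 1 (2.55%) and 610 were lower by as much (5.00%), and at a threshold of 2 there were 93 higher and 223 lower. The CPM of the 4 and 4 libraries did not overlap for 5029 genes (41.2%), and 4266 of these were called. The median log2 fold change of all genes tested was 0.02, with a median SE of 0.10. Gene lists below are set against these shares, and their medians against that median.

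The genes furthest higher in the Nur77 line were close to silent in the GFP line. Nefh, the heavy neurofilament subunit of axons, read 100.1, 99.4, 99.6 and 94.2 CPM in the Nur77 line, against 0.169, 0.410, 0.0842 and 0.316 CPM in the GFP line, and the log2 fold change was 8.66 (SE 0.25, adjusted p = 6.72e-19). Alpl, the tissue-nonspecific alkaline phosphatase that releases phosphate in mineralising tissue, read 99.4, 97.9, 98.7 and 91.7 CPM in the Nur77 line, against 0.253, 0.0684, 0.252 and 0.316 CPM in the GFP line (8.65, SE 0.17, adjusted p = 3.69e-23). For both genes the 4 Nur77 libraries lay within a narrow band and every GFP library was under 1 CPM. The chemokine Cxcl14 averaged 35.1 ± 1.1 CPM in the Nur77 line and 0.149 ± 0.16 CPM in the GFP line, and Ece1, the protease that activates endothelin, 58.3 ± 3.8 CPM in the Nur77 line and 0.404 ± 0.14 CPM in the GFP line. Neo1, a receptor for netrins and repulsive guidance molecules, averaged 14.2 ± 1.8 CPM in the Nur77 line and 0.191 ± 0.11 CPM in the GFP line, and Rasgrf2, which loads Ras with GTP, 18.0 ± 2.0 CPM in the Nur77 line and 0.397 ± 0.15 CPM in the GFP line. These were followed by Zcwpw1, a histone methylation reader known from meiosis, at 176 ± 3.4 CPM in the Nur77 line and 4.87 ± 0.35 CPM in the GFP line (log2 fold change 5.18, SE 0.10).

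The remaining genes among the 20 furthest higher had log2 fold changes from 2.25 to 3.48. They included the lectin Mgl2 (29.8 ± 2.5 CPM in the Nur77 line and 2.77 ± 0.88 CPM in the GFP line), the Notch ligand Jag2 (18.1 ± 2.0 CPM in the Nur77 line and 1.99 ± 0.56 CPM in the GFP line), the inhibitory receptor Pilra (39.0 ± 2.1 CPM in the Nur77 line and 4.65 ± 0.69 CPM in the GFP line), the B cell scaffold Bank1 (43.9 ± 0.68 CPM in the Nur77 line and 6.02 ± 0.49 CPM in the GFP line), the fetal serum protein Afp (55.2 ± 2.0 CPM in the Nur77 line and 8.31 ± 1.2 CPM in the GFP line) and the gap junction protein connexin 43, Gja1 (12.4 ± 0.82 CPM in the Nur77 line and 1.95 ± 0.44 CPM in the GFP line). Antxr1, an anthrax toxin receptor, Tcam1, an adhesion molecule of the testis, Spire2, an actin nucleator, Cacna1d, a voltage-gated calcium channel, Cd48, a SLAM family ligand, and the unnamed transcript Gm9732 made up the rest with Eno3. Eno3 encodes the muscle form of enolase, which has been reported to respond to Nur77 in muscle. It read 295, 319, 327 and 307 CPM in the Nur77 line, against 31.8, 34.3, 34.4 and 28.6 CPM in the GFP line, and the log2 fold change was 3.27 (SE 0.14, adjusted p = 5.75e-15).

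The genes furthest lower in the Nur77 line included secreted and surface proteins of macrophages. Scg2, a secretory granule protein, read 0.0806, 0, 0.119 and 0.130 CPM in the Nur77 line, against 14.0, 14.2, 14.9 and 17.1 CPM in the GFP line, and the log2 fold change was -7.36 (SE 0.29, adjusted p = 1.12e-16). Mmp12, the macrophage elastase, read 0.161, 0.275, 0 and 0.324 CPM in the Nur77 line, against 17.6, 23.2, 19.7 and 26.2 CPM in the GFP line (-6.81, SE 0.27, adjusted p = 1.78e-16). Both genes were thus all but absent from the Nur77 line and present in every GFP library. Cd84, a self-binding SLAM family receptor, read 2.74, 1.51, 2.50 and 2.20 CPM in the Nur77 line, against 106, 113, 109 and 120 CPM in the GFP line (-5.65, SE 0.11, adjusted p = 3.69e-23). Cpe, a carboxypeptidase that trims prohormones, averaged 0.996 ± 0.22 CPM in the Nur77 line and 52.1 ± 5.4 CPM in the GFP line, and Atp6v0d2, a proton pump subunit of osteoclasts and macrophages, 2.29 ± 0.33 CPM in the Nur77 line and 62.3 ± 4.9 CPM in the GFP line. The chemokine receptor Ccr1 averaged 3.03 ± 0.55 CPM in the Nur77 line and 39.3 ± 2.8 CPM in the GFP line.

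Further members of the 20 furthest lower were the interleukin-7 receptor chain Il7r (3.89 ± 0.47 CPM in the Nur77 line and 49.6 ± 3.3 CPM in the GFP line), the costimulatory ligand Cd86 (1.37 ± 0.55 CPM in the Nur77 line and 16.3 ± 1.1 CPM in the GFP line), Itgax, the integrin chain CD11c (1.25 ± 0.47 CPM in the Nur77 line and 11.4 ± 0.31 CPM in the GFP line), the collagen receptor Ddr2 (4.14 ± 0.80 CPM in the Nur77 line and 35.2 ± 3.0 CPM in the GFP line), and Ppargc1a, the coactivator PGC-1alpha of mitochondrial gene expression (0.539 ± 0.13 CPM in the Nur77 line and 12.7 ± 2.2 CPM in the GFP line). Dio2, which activates thyroid hormone, the hyaluronan receptor Layn, Igsf3, Ccbe1, Ms4a6c, Tbc1d9, the cell adhesion protein Opcml, the metallopeptidase Amz1 and the histone H2bc4 completed the set, with log2 fold changes between -5.47 and -3.04. Both sets of 20 were selected by size among called genes with at least 10 CPM in the higher line and no overlap between the lines, so their size and separation are descriptions of the selection.

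**Figure D1:**
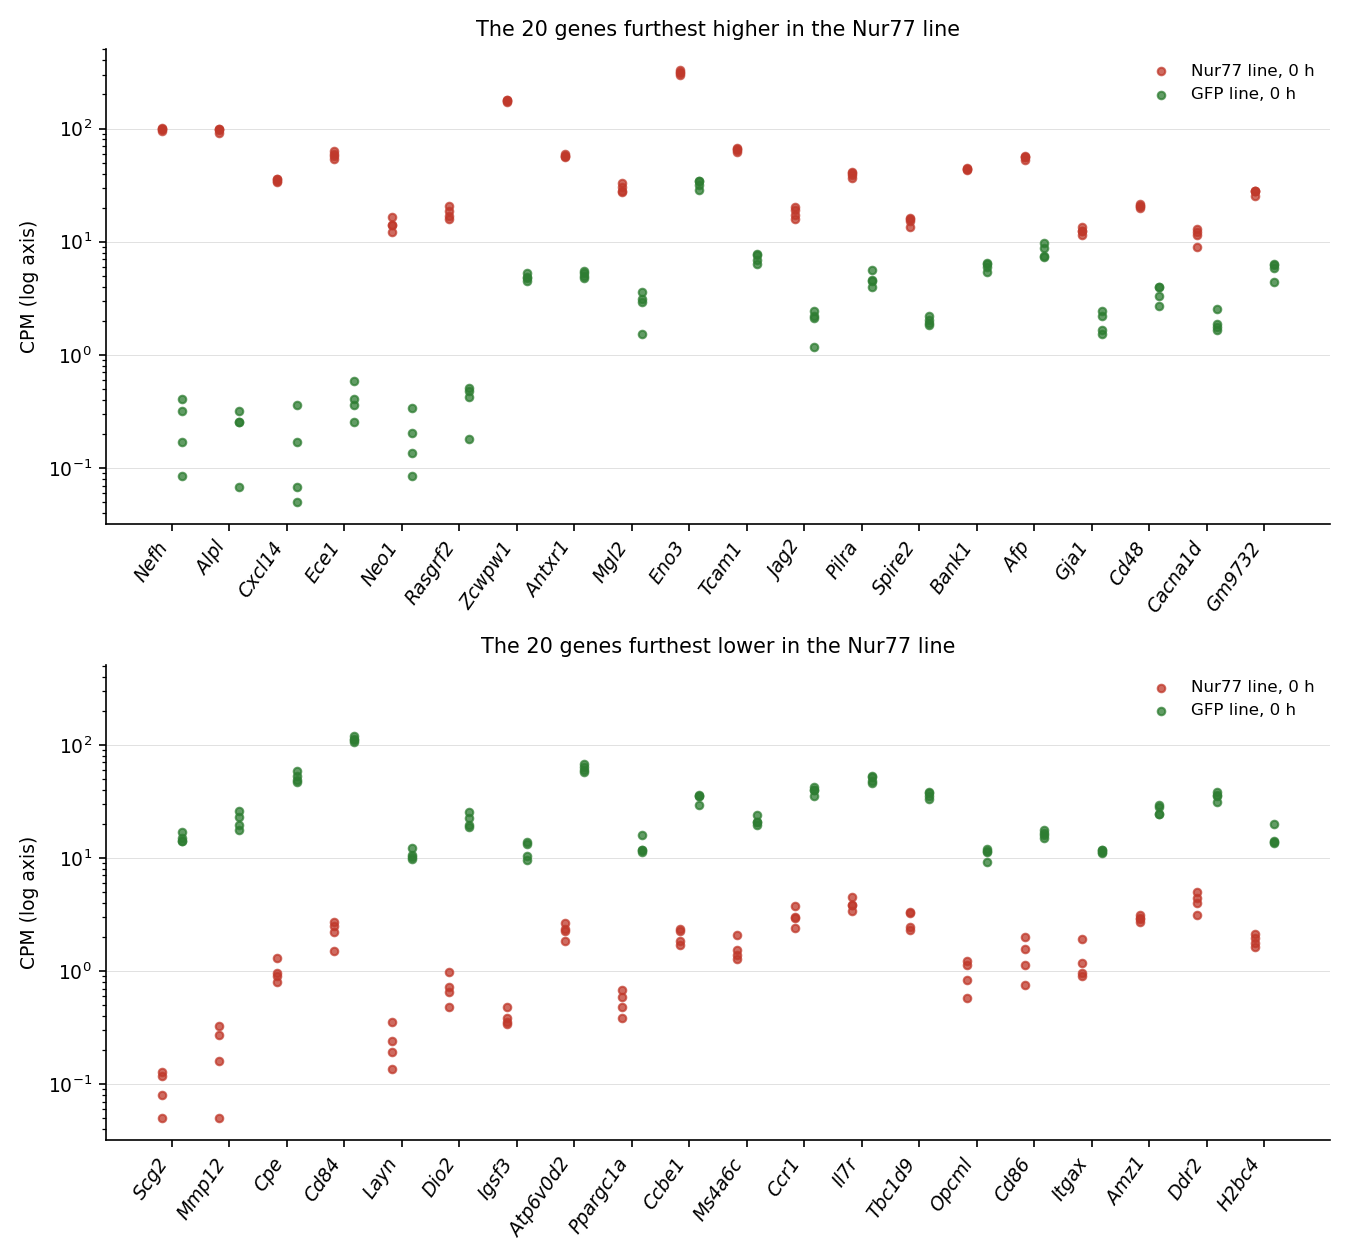
CPM of each library (1 point each, log axis, values under 0.05 drawn at 0.05) for the 20 genes furthest higher (upper panel) and the 20 furthest lower (lower panel), Nur77 line left of GFP line at each gene. Nefh and Alpl lie near 100 CPM in the Nur77 line and under 1 CPM in the GFP line, and Scg2 and Mmp12 lie under 1 CPM in the Nur77 line and between 14.0 and 26.2 CPM in the GFP line.

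Several of these genes lay beside one another on their chromosomes. Alpl and Ece1 were neighbours among tested genes, 65.9 kb apart on chromosome 4 (GRCm38), and both were near silent in the GFP line. Zcwpw1 overlapped Pilra on chromosome 5, in a run of 4 adjacent tested genes with Pilrb1 and Pilrb2 that were all higher by at least 1. Zcwpw1 and Pilra share sequence positions, and since no source used here states the strand setting of the counting, reads of this pair may be shared. Mgl2 lay 29.1 kb from Clec10a, the lectin CD301a, on chromosome 11, which averaged 257 CPM in the Nur77 line and 54.6 CPM in the GFP line (log2 fold change 2.23, SE 0.11). Neighbours could also move in opposite directions: Cd84 (lower) and Cd48 (higher) lay 134 kb apart on chromosome 1, with no tested gene between them. Of the genes higher by at least 1 that had a position, 54 of 309 (17.5%) had a neighbouring tested gene that was also higher by at least 1, and of the genes lower by at least 1, 160 of 604 (26.5%) had a neighbour lower by as much. Among all 12163 tested genes with a position, 4.98% had a neighbour higher by at least 1 and 9.56% a neighbour lower by as much. Neighbouring genes include paralogs and overlapping transcripts that can share reads, and the part of shared reads in these counts was not tested.

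Promoters of the large-change genes were read for the Nur77 element NBRE (AAAGGTCA or TGACCTTT), the AP-1 motif (TGACTCA or TGAGTCA) and the cyclic AMP response element CRE (TGACGTCA) on both strands, in windows of 250 bases before to 50 bases after each RefSeq start (GRCm38.p6). No motif overlaps another by definition except where the letters coincide in the sequence. Of genes with a window, the NBRE was present in 6 of 238 (2.52%, exact 95% interval 0.931 to 5.41) that were higher by at least 1, in 3 of 454 (0.661%, 0.136 to 1.92) that were lower by at least 1, and in 115 of 9705 (1.18%) of all tested. The AP-1 motif was present in 14 of 238 (5.88%, 3.25 to 9.67) of the higher genes, in 38 of 454 (8.37%, 5.99 to 11.3) of the lower genes and in 437 of 9705 (4.50%) of all tested. The CRE was present in 5 of 238 higher genes, in 5 of 454 lower genes (1.10%) and in 3.67% of all tested. The intervals treat genes as independent and cover counting error only. Of the 62 genes named by size, abundance or a fixed panel, 52 had a window, none of these held the NBRE, 6 held the AP-1 motif and 2 the CRE.

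Shown are the 5 of these genes with the AP-1 motif (in capitals) that were called, 4 lower and Gja1 higher, each 5′ to 3′ on the gene's own strand. Il6, the other, was not called. The motif began at base -44 from the start site in Mmp12 (chr9:7347124-7347423, plus strand), at -229 in Cd84 (chr1:171839447-171839746, plus strand), at -56 in Itgax (chr7:128129300-128129599, plus strand) at 9 in Gpnmb (chr6:49036268-49036567, plus strand) and at -19 in Gja1 (chr10:56377050-56377349, plus strand). The last sequence is the window of Fgd2 (chr17:29360664-29360963, plus strand), an exchange factor for Cdc42, with the NBRE in capitals at -118. Fgd2 was chosen after its values were seen, as the most abundant of the 6 higher genes whose window held an NBRE, at 16.002 ± 1.3 CPM in the Nur77 line and 4.82 ± 0.79 CPM in the GFP line.
Mmp12: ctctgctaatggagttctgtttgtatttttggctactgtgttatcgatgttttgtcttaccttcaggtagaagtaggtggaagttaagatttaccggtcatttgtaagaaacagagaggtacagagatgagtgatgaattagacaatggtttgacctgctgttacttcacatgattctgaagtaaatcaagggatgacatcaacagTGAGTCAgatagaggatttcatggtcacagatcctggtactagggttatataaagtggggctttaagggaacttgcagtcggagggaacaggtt
Cd84: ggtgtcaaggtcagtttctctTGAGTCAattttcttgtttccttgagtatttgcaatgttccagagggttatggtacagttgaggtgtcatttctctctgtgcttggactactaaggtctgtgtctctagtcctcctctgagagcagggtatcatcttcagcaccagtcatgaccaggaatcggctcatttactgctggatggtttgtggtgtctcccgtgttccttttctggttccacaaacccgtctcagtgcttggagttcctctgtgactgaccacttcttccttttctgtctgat
Itgax: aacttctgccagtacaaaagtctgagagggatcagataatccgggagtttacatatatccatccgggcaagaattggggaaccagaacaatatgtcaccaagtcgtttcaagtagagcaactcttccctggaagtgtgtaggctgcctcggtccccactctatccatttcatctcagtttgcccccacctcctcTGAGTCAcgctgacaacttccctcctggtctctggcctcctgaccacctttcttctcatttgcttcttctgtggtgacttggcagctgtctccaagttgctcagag
Gpnmb: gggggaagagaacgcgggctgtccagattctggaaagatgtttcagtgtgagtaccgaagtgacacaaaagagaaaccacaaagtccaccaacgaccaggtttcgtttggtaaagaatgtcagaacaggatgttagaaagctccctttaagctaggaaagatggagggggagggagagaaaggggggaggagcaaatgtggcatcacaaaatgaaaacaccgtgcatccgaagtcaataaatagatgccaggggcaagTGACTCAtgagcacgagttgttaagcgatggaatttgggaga
Gja1: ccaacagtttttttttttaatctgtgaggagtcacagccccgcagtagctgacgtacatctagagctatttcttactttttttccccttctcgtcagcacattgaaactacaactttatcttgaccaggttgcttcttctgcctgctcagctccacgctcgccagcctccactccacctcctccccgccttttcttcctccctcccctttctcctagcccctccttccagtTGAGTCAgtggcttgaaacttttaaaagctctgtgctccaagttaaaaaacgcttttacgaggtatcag
Fgd2: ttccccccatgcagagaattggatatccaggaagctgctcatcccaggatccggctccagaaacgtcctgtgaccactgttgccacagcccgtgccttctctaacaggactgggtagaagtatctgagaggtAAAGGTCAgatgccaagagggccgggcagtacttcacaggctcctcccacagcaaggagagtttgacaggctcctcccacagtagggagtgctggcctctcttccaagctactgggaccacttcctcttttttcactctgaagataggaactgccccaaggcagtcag
A motif in a window is a match of letters and no measurement of binding.

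Among the most abundant transcripts, more were called lower than higher. Of 245 tested genes with at least 500 CPM in the higher line, 37 were called higher and 65 lower. Gpnmb, a transmembrane glycoprotein of lysosomes and phagosomes, read 3497, 3388, 3476 and 3296 CPM in the Nur77 line, against 12904, 12541, 12935 and 13110 CPM in the GFP line, and the log2 fold change was -1.91 (SE 0.16, adjusted p = 3.99e-09). The galactose-binding lectin Lgals3 averaged 342 ± 11 CPM in the Nur77 line and 1253 ± 34 CPM in the GFP line, and the lysosomal proteases Lgmn, Ctsd and Ctss had log2 fold changes of -1.86, -1.47 and -1.35. Mpeg1, the pore-forming perforin-2 of phagosomes, averaged 677 ± 13 CPM in the Nur77 line and 1621 ± 80 CPM in the GFP line. On the higher side, the RNA helicase Dhx9 averaged 901 ± 44 CPM in the Nur77 line and 276 ± 4.6 CPM in the GFP line. Cd36, the scavenger receptor for oxidised lipoprotein and fatty acids, read 949, 984, 999 and 1018 CPM in the Nur77 line, against 327, 357, 363 and 357 CPM in the GFP line (1.49, SE 0.06, adjusted p = 4.43e-17). The integrin chain Itga4, the cysteine protease inhibitor Cst3, the endocytic adaptor Dab2 and the serine incorporator Serinc3 were higher by 1.48, 1.22, 1.05 and 0.78. In these bulk libraries, fewer cells that express a gene and less RNA per cell cannot be told apart.

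Most lysosomal genes were lower. Of 57 tested lysosomal genes, 38 were lower and 3 higher, with a median log2 fold change of -0.32, and their summed level was 19864 CPM in the Nur77 line and 32984 CPM in the GFP line. Ctsd, the aspartic protease cathepsin D, read 2419, 2452, 2546 and 2315 CPM in the Nur77 line, against 6795, 6692, 6926 and 6613 CPM in the GFP line (-1.47, SE 0.06, adjusted p = 8.42e-17). Every Nur77 library was below every GFP library. Ctsb, cathepsin B, averaged 2890 CPM in the Nur77 line and 5418 CPM in the GFP line (-0.91, SE 0.06). The osteoclast phosphatase Acp5 was at 0.940 CPM in the Nur77 line and 7.22 CPM in the GFP line (-2.95), and Npc2, which hands cholesterol on inside the lysosome, at 236 CPM in the Nur77 line and 487 CPM in the GFP line (-1.05). Galc, which degrades galactosylceramide, and Gusb, beta-glucuronidase, were lower by 0.88 and 0.34 (log2 fold changes -0.88 and -0.34).

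The vacuolar proton pump, which acidifies this compartment, fell alongside it. Of 20 tested subunit genes, 17 were lower and 1 higher, with a median of -0.36. The subunit genes Atp6v1d (-1.11), Tcirg1 (-1.02), Atp6v0a1 (-0.88), Atp6v0d1 (-0.81) and Atp6v1c1 (-0.74) followed Atp6v0d2 (-4.75). Of the autophagy and TFEB family list, 13 of 36 tested members were lower and 3 higher. Its lower members included Fnip2, a partner of folliculin (-1.05), the transcription factor Mitf (-0.66), the autophagosome protein Gabarapl1 (-0.49) and the Rag GTPase Rragc (-0.40). Of its higher members, the Rag GTPase Rragd averaged 0.647 CPM in the Nur77 line and had no count in any GFP library. Without members on chromosome 12, whose genes were lower as a whole, 35 lysosomal and 16 proton pump genes were lower.

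**Figure D2:**
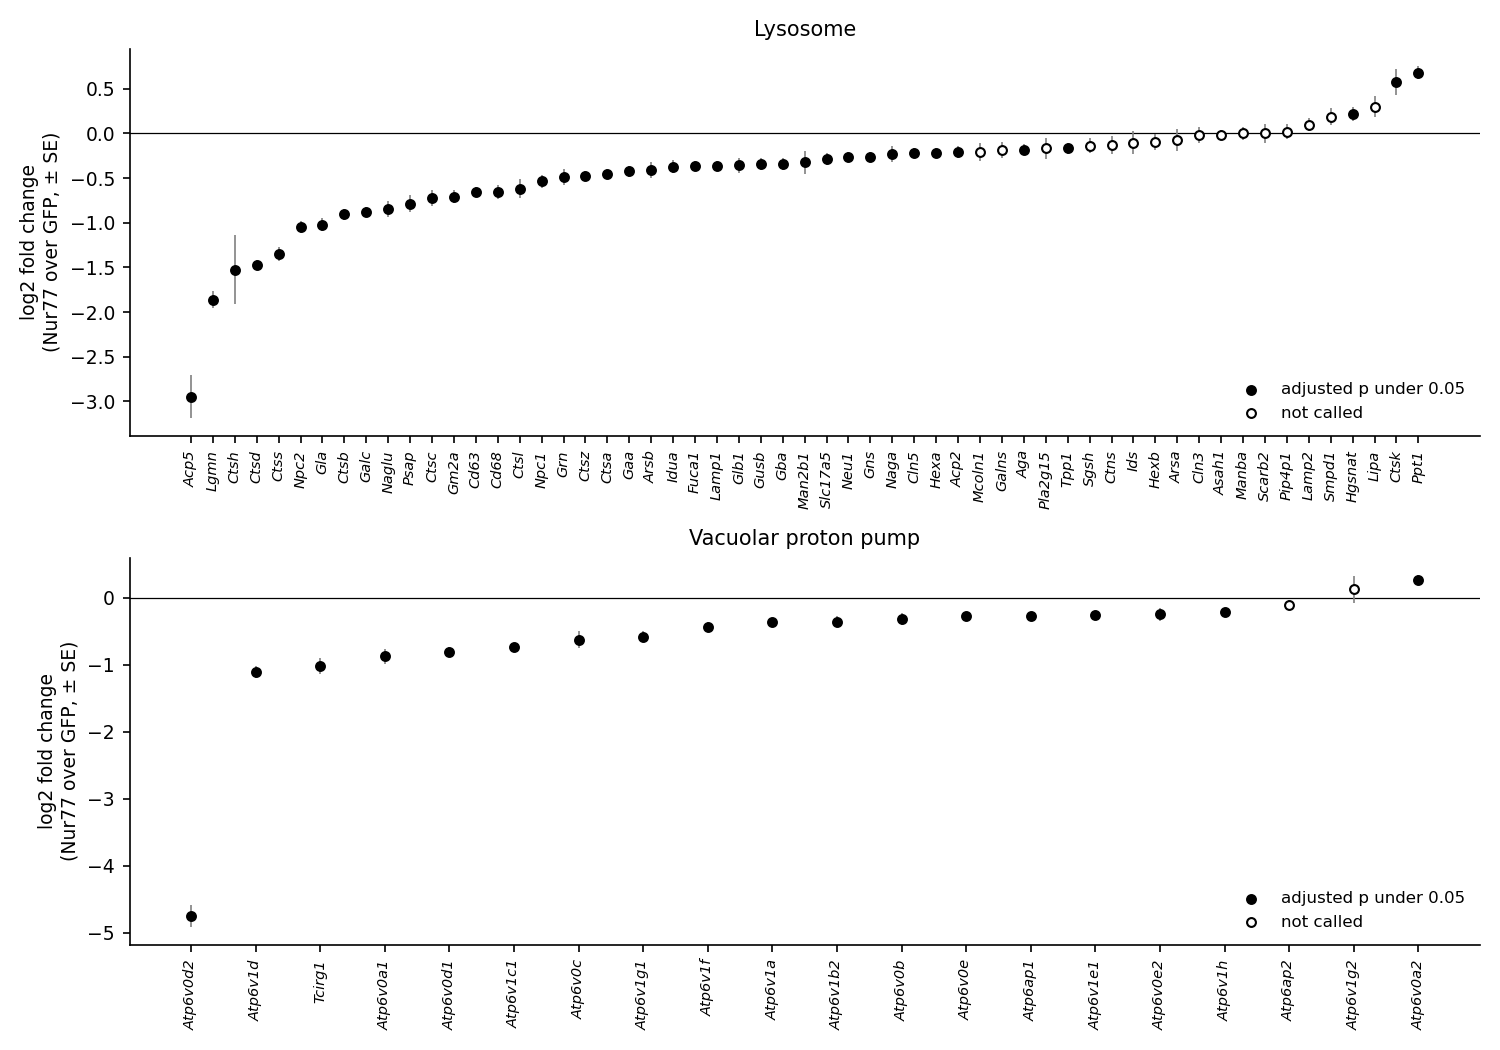
Log2 fold change ± SE of each tested lysosomal gene (upper panel) and each tested proton pump gene (lower panel), Nur77 line over GFP line before LPS, in ascending order; filled points were called. Most points lie below 0, from -2.95 (Acp5) and -4.75 (Atp6v0d2) upward, and 3 lysosomal genes and 1 pump gene were called above 0.

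Macrophage surface and phagocytic genes were mixed, with the general markers lower. Of 21 tested macrophage identity genes, 14 were lower and 2 higher (1 without GFP replicate 4 or Nur77 replicate 2), and their summed level was 9105 to 9357 CPM in the Nur77 libraries and 16218 to 16420 CPM in the GFP libraries. Lysozyme Lyz1 averaged 7.58 CPM in the Nur77 line and 61.8 CPM in the GFP line (-3.03, SE 0.27), and the more abundant Lyz2 2781 CPM in the Nur77 line and 5646 CPM in the GFP line (-1.02, SE 0.12). These are near-identical copies, between which the authors' counting may have split reads. The inhibitory receptor Cd200r1 (-1.57), the Fc receptor chain Fcgr3 (-0.81) and the F4/80 gene Adgre1 (-0.71) were also lower, whereas the log2 fold changes of Csf1r (0.28, adjusted p = 0.104, called in a fit of the 8 libraries alone), Itgam (-0.03, adjusted p = 0.907) and Cd14 (-0.07, adjusted p = 0.482) were not called. Of the lectins, scavenger and phagocytic receptors, 8 of 31 were higher and 14 lower. By at least 1, 6 were higher and 8 lower. Higher members included Pilra, Clec10a, Cd36 and the HDL receptor Scarb1 (0.70). Lower members included Lgals3 (-1.87) and Sirpa, which receives the CD47 signal (-0.52). All 5 tested SLAM family genes were called, 4 higher (Slamf8 at 3.12, Cd48 at 2.53, Slamf9 at 0.72, Ly9 at 0.20) and Cd84 lower.

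Of the Fc receptor and complement genes, 5 of 18 were higher and 9 lower, with 3 higher when GFP replicate 4 or Nur77 replicate 2 was left out. The complement receptor chain Itgb2 (-0.48), the anaphylatoxin receptor C3ar1 (-0.56) and properdin Cfp (-0.49) were lower, and the C5a receptor C5ar1 was higher, at 82.8 CPM in the Nur77 line and 43.9 CPM in the GFP line (0.91, SE 0.06). Antigen presentation and costimulation genes were 4 higher and 9 lower of 23. Cd86 (-3.53), the costimulatory genes Tnfrsf9 (-1.79) and Icosl (-1.71) and the invariant chain Cd74 (-0.72) were lower, whereas the peptide trimming enzyme Erap1 (0.43) and the immunoproteasome subunit Psmb8 (0.35) were higher. Of 12 tested osteoclast markers, 7 were lower, among them Itgb3 (-4.03) and the kinase Src (-1.70), and 3 were higher, among them carbonic anhydrase Car2 (1.54).

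Genes of lipid and iron handling followed the lower side. Of 24 tested LXR target and lipid handling genes, 13 were lower and 3 higher (median -0.43), with 6 higher when Nur77 1 h replicate 2 was left out of the fit or when the 8 libraries were fitted alone. The fatty acid binding protein Fabp5 averaged 34.2 CPM in the Nur77 line and 157 CPM in the GFP line (-2.20, SE 0.10), the lipid droplet coat Plin2 155 CPM in the Nur77 line and 286 CPM in the GFP line (-0.89), and the cholesterol esterifying enzyme Soat1 390 CPM in the Nur77 line and 712 CPM in the GFP line (-0.87). Nceh1, which hydrolyses cholesteryl ester, was lower by -0.77 on the log2 scale, and Cd36 and Scarb1 were among the 3 higher. Of the iron, heme and Nrf2 antioxidant genes, 5 of 37 were higher and 16 lower. Hmox1, which degrades heme, read a mean of 67.9 CPM in the Nur77 line and 173 CPM in the GFP line (-1.35, SE 0.06), the ferritin heavy chain Fth1 3988 CPM in the Nur77 line and 7310 CPM in the GFP line (-0.87, SE 0.05), and the transferrin receptor Tfrc, which imports iron, was higher at 168 CPM in the Nur77 line and 107 CPM in the GFP line (0.65, SE 0.10). The metallothioneins Mt2 (-0.83) and Mt1 (-0.64) were lower. Of 24 tested cholesterol synthesis genes, 3 were higher and 6 lower (37.5% called, against 39.9% of all genes tested).

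Most hypoxia-response and glycolytic genes were lower. Of 26 tested hypoxia-response genes, 18 were lower and 2 higher (median -0.58). Their log2 fold changes ran from -2.11 to 3.72, with 7 genes lower and 1 higher by at least 1. Of 27 tested glycolytic genes, 18 were lower and 1 higher (median -0.37). That single higher call was lost without GFP replicate 2 or 4 or Nur77 replicate 1 or 4, and when the 8 libraries were fitted alone. Adrenomedullin, Adm, averaged 2.20 CPM in the Nur77 line and 9.50 CPM in the GFP line (-2.11, SE 0.15). Ndrg1, a stress protein induced by low oxygen, averaged 279 CPM in the Nur77 line and 664 CPM in the GFP line (-1.25, SE 0.09), and the mitophagy receptor Bnip3 112 CPM in the Nur77 line and 222 CPM in the GFP line (-0.99, SE 0.09). Selenbp1 (-1.68), the oxygen sensor Egln3 (-1.08) and the mitochondrial adenylate kinase Ak4 (-0.71) changed the same way. Among glycolytic genes, the hexokinase Hk3 (-1.21), the neuronal enolase Eno2 (-1.41), the regulatory kinase Pfkfb3 (-0.82), the glucose transporter Slc2a1 (-0.72), lactate dehydrogenase Ldha (-0.63) and the phosphoglycerate kinase Pgk1 (-0.59) were lower. Eno2 at 21.4 CPM in the Nur77 line and 57.1 CPM in the GFP line thus moved opposite to Eno3. Eno3, also an enolase, was not in the glycolytic list and its counts above. It averaged 312 CPM in the Nur77 line and 32.3 CPM in the GFP line (3.27, SE 0.14).

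Genes of the respiratory chain and of the mitochondrial ribosome changed little in size. Of 77 tested respiratory chain subunit genes, 28 were lower and none higher at the threshold, with a median of -0.13 and a largest change of -0.40. Cox5b averaged 82.2 CPM in the Nur77 line and 105 CPM in the GFP line (-0.35, SE 0.06), and Uqcrc1 155 CPM in the Nur77 line and 189 CPM in the GFP line (-0.29, SE 0.06). These transcripts are short, and the shortest of 5 equal classes of tested genes by length had a median of -0.05 against 0.05 in the longest. Relative to the median of their length class, the 73 subunit genes with a known length had a median of -0.09. With replicates 1 and 3 against 2 and 4 as a term in a fit of the 8 libraries, 46 subunit genes were lower, and without GFP replicate 4 a single one was higher. Of 66 tested genes of the mitochondrial ribosome and translation, 10 were lower and 3 higher, all by less than a log2 fold change of 1 (19.7% called, against 39.9% of all genes tested).

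Cell cycle genes were higher. Of 50 tested genes of G2/M and mitosis, 44 were higher and none lower, with a median of 0.47, and of 63 tested genes of G1/S and DNA replication, 41 were higher and 3 lower (median 0.27). Kif11, a spindle motor, averaged 246 CPM in the Nur77 line and 152 CPM in the GFP line (0.70, SE 0.08), the condensin subunit Ncapg 208 CPM in the Nur77 line and 128 CPM in the GFP line (0.70, SE 0.07), and the checkpoint kinase Bub1b 264 CPM in the Nur77 line and 179 CPM in the GFP line (0.56, SE 0.06). The repressor E2f7 (1.13), the pocket protein Rbl1 (0.78) and thymidylate synthase Tyms (0.78) were the leading G1/S members. Cdkn1a, the p21 inhibitor of cyclin-dependent kinases, was lower at 181 CPM in the Nur77 line and 278 CPM in the GFP line (-0.62, SE 0.05). Cdkn1a is also a target of p53, and of 23 tested p53 target genes 14 were lower and 2 higher (median -0.39). Trp53inp1 (-1.75), Eda2r (-1.40) and the p53 antagonist Mdm2 (-0.51) were lower, and the apoptosis inducer Pmaip1 was higher at 148 CPM in the Nur77 line and 59.5 CPM in the GFP line (1.31, SE 0.15). No member of the mitosis list changed by a log2 fold change of 1. Of 8 tested replication-dependent histone genes, whose transcripts mostly lack poly(A) tails, 5 were lower and none higher, among them H1f2 (-1.59).

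Genes of the secretory pathway's stress response were higher by small steps. Of 30 tested genes of the unfolded protein response, 19 were higher and 4 lower (median 0.24). The cochaperone Dnajc3 averaged 178 CPM in the Nur77 line and 103 CPM in the GFP line (0.79, SE 0.07), the degradation factor Herpud1 86.4 CPM in the Nur77 line and 54.6 CPM in the GFP line (0.66, SE 0.05), and the transcription factor Xbp1 143 CPM in the Nur77 line and 109 CPM in the GFP line (0.40, SE 0.06). Of the integrated stress response and amino acid genes, 11 of 35 were higher and 6 lower, with the proline synthesis enzyme Pycr1 (1.22) and the amino acid transporter Slc7a5 (0.74) leading the higher side. Cytosolic ribosomal proteins had a median of -0.04, close to that of all genes: 2 of 76 were lower, none was higher, and the 2 called, Rps29 (-0.59) and Rps7 (-0.40), both lie on chromosome 12. The lower count was 18 in a fit of the 8 libraries alone, and 4 to 6 without GFP replicate 3, GFP 1 h replicate 1 or 3, GFP 5 h replicate 1, 2 or 3, Nur77 1 h replicate 1, 2 or 4 or Nur77 5 h replicate 1.

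NF-kB pathway and feedback genes were higher before any LPS. Of 30 tested members, 21 were higher and 2 lower, with a median of 0.44. Tnfaip3, the ubiquitin editor A20 that shuts NF-kB off, averaged 22.8 CPM in the Nur77 line and 7.79 CPM in the GFP line (1.56, SE 0.08, adjusted p = 2.27e-14), and Tnip3, a partner of A20, 110 CPM in the Nur77 line and 46.3 CPM in the GFP line (1.24, SE 0.08). The NF-kB-inducing kinase Map3k14 (1.35), the adaptor Traf1 (1.91), the ubiquitin ligase Birc3 (0.82) and the inhibitor Nfkbia (0.73) were higher as well. Most of these named members are also targets of NF-kB and act as its inhibitors or adaptors. Of the Toll-like receptor chain, 9 of 28 were higher and 5 lower. Tlr2, the receptor for bacterial lipopeptides, averaged 234 CPM in the Nur77 line and 124 CPM in the GFP line (0.91, SE 0.19), Tlr1 (0.90) and the receptor accessory protein Ly86 (1.00) were higher, and the endosomal RNA sensors Tlr8 (-2.79) and Tlr13 (-0.62) were lower. The Toll-like receptor counts moved to 5 higher without Nur77 replicate 4 and to 3 lower without GFP replicate 3. Of the MAP kinase genes 10 of 26 were higher and 3 lower. The inhibitor of growth factor signalling Spry4 averaged 4.15 CPM in the Nur77 line and 0.215 CPM in the GFP line (4.18, SE 0.44). Of the inflammasome genes 9 of 18 were higher and 3 lower, with Naip5 (0.94), Naip6 (0.87), Naip2 (0.66) and Nlrp3 (0.78) on the higher side. The Naip genes are near-identical copies, between which reads may have been split.

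Cytokine genes did not follow a single direction. Tnf, the tumour necrosis factor gene, read 46.7, 57.1, 53.2 and 47.8 CPM in the Nur77 line, against 20.9, 27.6, 19.1 and 19.96 CPM in the GFP line, and the log2 fold change was 1.23 (SE 0.16, adjusted p = 1.32e-06). All Nur77 libraries were above all GFP libraries. Of 27 tested cytokines and growth factors, 13 were lower and 4 higher (median -0.59). The interleukin-1 receptor antagonist Il1rn averaged 6.24 CPM in the Nur77 line and 46.4 CPM in the GFP line (-2.90, SE 0.22), and Tnfsf12 (-1.97), Pdgfa (-1.48), Csf1 (-1.26) and Igf1 (-1.04) were lower too. Il1b and Il6 were near the limit of counting in both lines. Il1b averaged 0.131 CPM in the Nur77 line and 0.266 CPM in the GFP line (adjusted p = 0.546), and Il6 had 2 counts in all Nur77 libraries and 5 in all GFP libraries. Nos2, the inducible nitric oxide synthase, had 5 counts in all Nur77 libraries and 82 in all GFP libraries, and the log2 fold change was -3.63 (SE 0.66, adjusted p = 0.000116).

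Chemokines and their receptors split by member. Of 19 tested chemokines, 8 were higher and 3 lower. Ccl2, the monocyte attractant, read 8.54, 9.21, 9.87 and 7.46 CPM in the Nur77 line, against 17.4, 24.5, 24.8 and 24.3 CPM in the GFP line. Its groups did not overlap, the log2 fold change was -1.38 (SE 0.51, adjusted p = 0.0362), and the call was lost in 8 of the alternative settings. These were the fit without a filter and those without any resting library other than GFP replicate 1. The call was kept when the 8 libraries were fitted alone. Cxcl10 averaged 3.98 CPM in the Nur77 line and 0.337 CPM in the GFP line (3.44), Ccl22 2.41 CPM in the Nur77 line and 0.178 CPM in the GFP line (3.60), and Cxcl2 11.6 CPM in the Nur77 line and 6.25 CPM in the GFP line (0.91). Pf4 was lower (-1.45). Of 15 tested chemoattractant receptors, 6 were higher and 6 lower. The fractalkine receptor Cx3cr1 averaged 160 CPM in the Nur77 line and 37.3 CPM in the GFP line (2.102, SE 0.31), and Ccr1 (-3.68) and Cxcr4 (-1.33) were lower. Of 39 tested cytokine receptors and their signalling genes, 16 were higher and 6 lower, with the interleukin-17 receptor chain Il17ra at 296 CPM in the Nur77 line and 122 CPM in the GFP line (1.28, SE 0.07), the interferon gamma receptor chain Ifngr1 at 0.70, and the GM-CSF receptor chains Csf2ra (-0.78) and Csf2rb2 (-0.83) lower. Of 45 tested interferon-stimulated genes, 5 were higher and 9 lower, which is 31.1% called against 39.9% of all genes, and 3 were higher without Nur77 replicate 4. The chemokine count moved to 1 lower without GFP replicate 4.

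Of the AP-1 subunits and immediate early genes, more were called lower than higher. Fos, which pairs with Jun to form AP-1, read 4.43, 4.47, 4.40 and 4.93 CPM in the Nur77 line, against 17.7, 18.1, 19.7 and 17.3 CPM in the GFP line, and the log2 fold change was -2.00 (SE 0.12, adjusted p = 8.19e-13). Jun read 89.8, 82.9, 80.8 and 83.9 CPM in the Nur77 line, against 58.7, 58.4, 60.1 and 67.6 CPM in the GFP line, and the log2 fold change was 0.46 (SE 0.14, adjusted p = 0.010). The groups did not overlap for either partner, and the partners moved in opposite directions. Of 17 tested AP-1 and related subunit genes, 8 were lower and 3 higher. Atf3 averaged 34.3 CPM in the Nur77 line and 92.9 CPM in the GFP line (-1.44, SE 0.08), Jund (-0.71) and Fosl2 (-0.58) were lower, and Fosl1 was higher (0.83). Of 23 tested immediate early genes outside AP-1, 8 were lower and 3 higher. Egr1, a zinc finger factor induced by serum and stress, averaged 17.4 CPM in the Nur77 line and 106 CPM in the GFP line (-2.60, SE 0.15), and Gadd45a (-2.13), Klf4 (-0.82) and Klf6 (-0.62) were lower.

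Of 29 tested textbook AP-1 target genes, 16 were lower and 2 higher, with a median of -0.73. Beside Mmp12, Itgax, Hmox1 and Fth1, the lower members with the smallest adjusted p were Vim, the intermediate filament vimentin, at 561 CPM in the Nur77 line and 1177 CPM in the GFP line (-1.07, SE 0.05), and the hyaluronan receptor Cd44 at 352 CPM in the Nur77 line and 694 CPM in the GFP line (-0.98, SE 0.10). The 2 higher members were Tnf (1.23) and the integrin chain Itgav (1.44), and 5 were higher when Nur77 1 h replicate 2 was left out of the fit or when the 8 libraries were fitted alone. Many of these genes are also targets of other factors, and the list overlaps those of iron handling and adhesion. Of 33 tested myeloid transcription factors, 8 were higher and 5 lower (39.4% called, against 39.9% of all genes tested), or 10 lower in a fit of the 8 libraries alone. Bhlhe41 averaged 26.9 CPM in the Nur77 line and 120 CPM in the GFP line (-2.16, SE 0.10) and its relative Bhlhe40 35.1 CPM in the Nur77 line and 73.2 CPM in the GFP line (-1.06, SE 0.15), whereas the lymphoid and myeloid factors Ikzf1 (0.84) and Ets2 (0.60) and the repressor Gfi1b (1.58) were higher.

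Of 20 tested other nuclear receptors, 5 were lower and 2 higher (35% called, against 39.9% of all genes tested). The higher count was 1 when any of the 8 libraries, GFP 5 h replicate 1, 2 or 3, Nur77 1 h replicate 4 or Nur77 5 h replicate 1 was left out. The lower count was 8 when the 8 libraries were fitted alone, and 1 was higher with the replicate number as a block or without the ribosomal RNA precursor. Rora averaged 1.22 CPM in the Nur77 line and 5.17 CPM in the GFP line (-2.09, SE 0.22), and the heme receptor Nr1d1 (-0.91), the oxysterol receptor LXR alpha, Nr1h3 (-0.67), and the thyroid hormone receptor Thra (-0.34) were lower. Of 23 tested corepressors and coactivators, 5 were lower and 3 higher (34.8% called, against 39.9% of all genes tested). With members on chromosome 12 left out, 3 were lower. Ppargc1a was at -4.55, and the deacetylases Hdac1 (0.31) and Hdac2 (0.28) were on the higher side. Of 8 tested genes that earlier work in muscle or liver linked to Nur77, Eno3 was higher (2 higher without GFP replicate 2), and Slc2a4 (-1.71), the phosphatidate phosphatase Lpin1 (-1.06) and glycogen synthase Gys1 (-0.62) were lower. Of 18 commonly used reference genes, 3 were higher and 4 lower (38.9% called, against 39.9% of all genes tested). Pgk1 (-0.59), Gusb (-0.34) and Sdha (-0.17) were among the lower genes, and Tfrc (0.65) and Actb (0.36) among the higher.

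**Figure D3:**
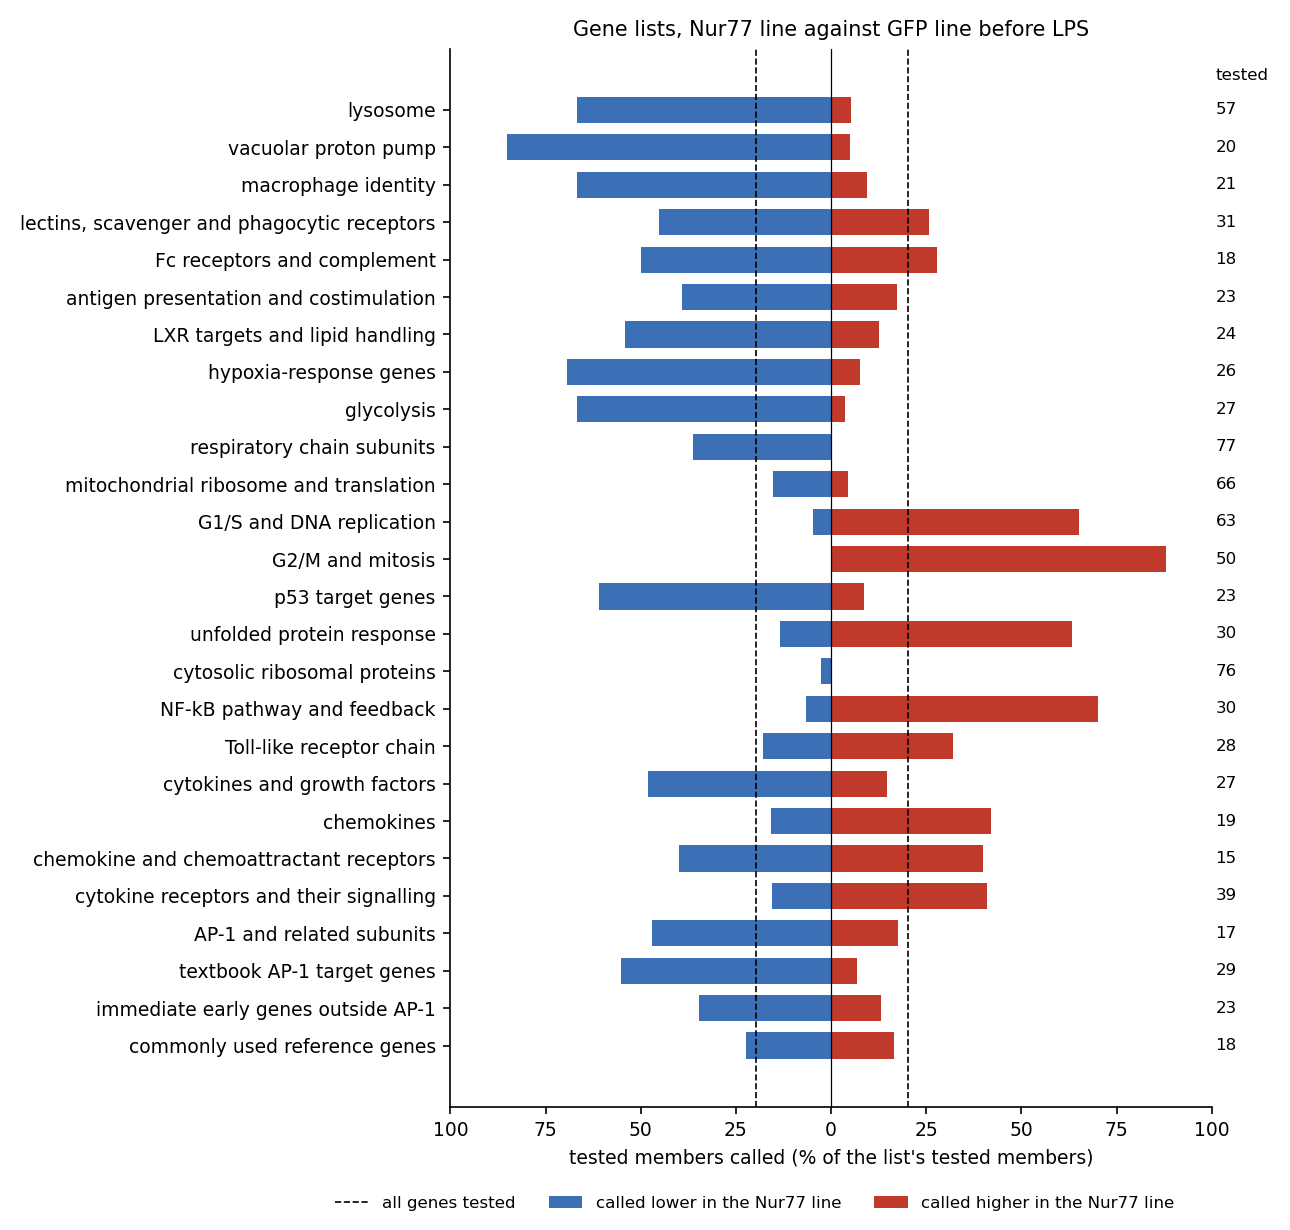
Percent of the tested members of 26 gene lists called higher (bars to the right) or lower (bars to the left) in the Nur77 line before LPS, with the number tested at the right; dashed lines mark the shares of all genes tested, 20.3% higher and 19.7% lower. The G2/M list reaches 44 of 50 on the higher side, and the proton pump list 17 of 20 on the lower side.

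Genes on chromosome 12 were lower as a whole. Of 435 tested genes there, 285 were lower (65.5%) and 14 higher (3.22%), with a median log2 fold change of -0.41 and quartiles of -0.63 and -0.21. The medians of the other chromosomes lay between 0.00 and 0.08. Of the genes described above, Fos, Lgmn, Dio2, Egln3, Npc2, Galc, Lpin1, Atp6v1d, Rps29 and Rps7, all lower, and Jag2 and Nfkbia, both higher, lie on this chromosome, and the part of its general difference in their values was not tested. With members on chromosome 12 left out, 20 NF-kB genes were higher and 1 lower, 5 AP-1 subunit genes were lower and 3 higher, 17 hypoxia-response genes were lower, and the AP-1 target and G2/M lists had no member there.

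**Figure D4:**
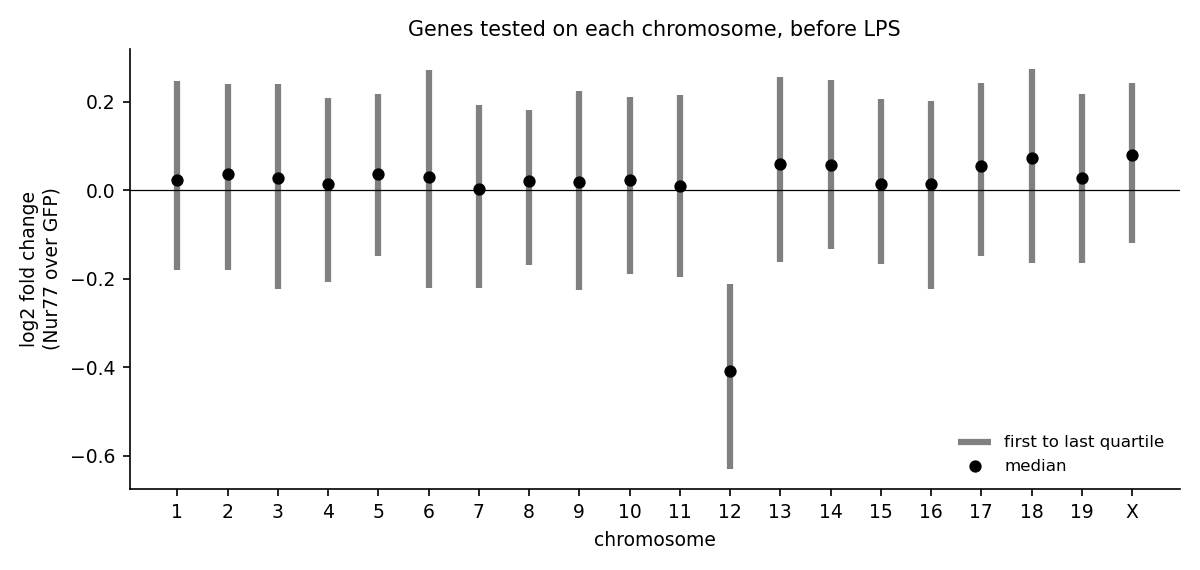
Median (points) and first to last quartile (bars) of the log2 fold change, Nur77 line over GFP line before LPS, of the tested genes on each chromosome. Chromosome 12 has a median of -0.41, and the other medians lie between 0.00 and 0.08.

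Most of the large resting differences were also called after LPS, in contrasts of other libraries from the same fit, which share its estimate of spread. Of the 311 genes higher by at least 1 before LPS, 260 were called in the same direction after 1 h (83.6%) and 229 after 5 h (73.6%). Of the 610 genes lower by at least 1, 549 were called in the same direction after 1 h and 534 after 5 h (87.5%). The share of all genes tested that was called between the lines after LPS was not counted. How far these percentages exceed the general rate is therefore not known. The difference of the line effect from that before LPS was called for 138 of all genes tested at 1 h (1.13%) and for 961 at 5 h (7.88%). The count at 1 h depended on single libraries of both times: it was 1597 without Nur77 1 h replicate 1, 614 without replicate 4 and 224 without replicate 2, and 74 to 87 when GFP replicate 4, Nur77 replicate 2, 3 or 4, GFP 1 h replicate 2 or 4 or Nur77 1 h replicate 3 was left out. At 5 h it was 1681 without Nur77 1 h replicate 2.

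All 40 genes named by size kept their direction and their call at both times. Because they were selected by the size of the effect before LPS, a smaller effect later is favoured by the selection. Pilra was closest to converging: its log2 fold change was 3.05 before LPS and 0.96 after 5 h, a difference of -2.096 (SE 0.17, adjusted p = 5.6e-09), and its neighbour Zcwpw1 went the same way (5.18 and 3.94, difference -1.24, adjusted p = 3.7e-07). Gja1 was also less different after 5 h (2.62 before LPS and 1.37 after 5 h, adjusted p of the difference 8.26e-05). Spire2 was further apart, at 2.95 before LPS and 4.87 after 5 h (difference 1.92, SE 0.22, adjusted p = 1.75e-06), and so was Mgl2 (3.38 and 4.47, adjusted p of the difference 0.0355). Scg2 was nearer at both times, with -7.36 before LPS, -5.06 after 1 h (adjusted p of the difference 0.0434) and -4.64 after 5 h (adjusted p of the difference 0.00147).

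**Figure D5:**
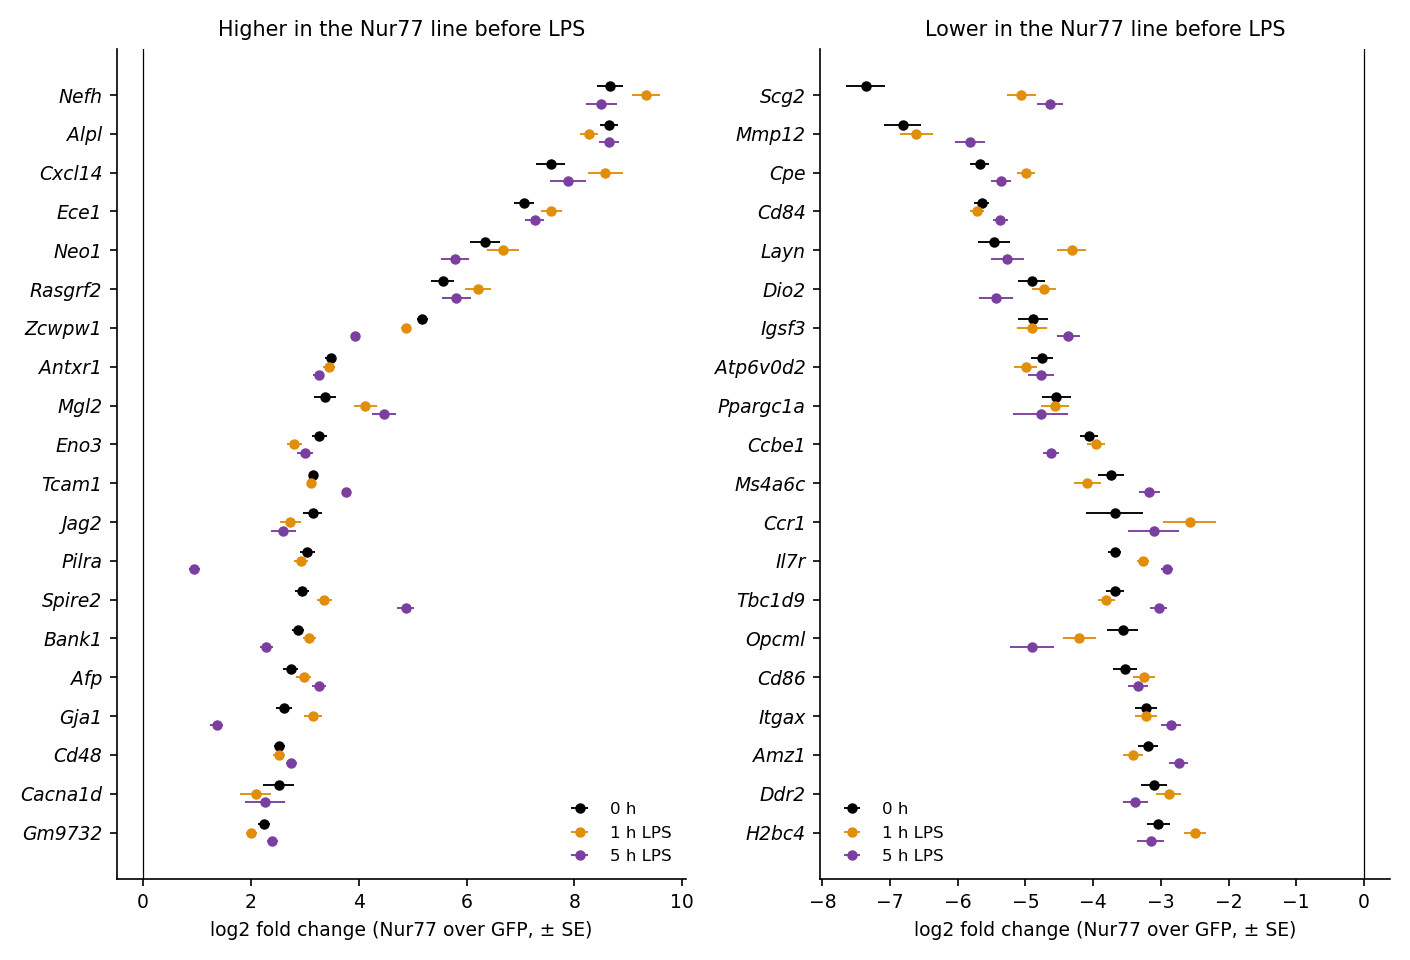
Log2 fold change ± SE, Nur77 line over GFP line, before LPS (black), after 1 h (orange) and after 5 h (purple) for the 20 genes furthest higher (left panel) and the 20 furthest lower (right panel) before LPS. All points at left lie above 0 and all points at right are negative, with Pilra at 0.96 after 5 h.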

How the data were processed

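The authors deposited 1 table of estimated counts per RefSeq transcript in 24 libraries, not normalized, in steps of 0.5; 53.7% of the values above 0 were whole. Libraries were made with a poly(A)-selecting mRNA kit, per the labels' protocols. CASAVA 1.8.2, HISAT2 2.1.0 and the build mm10 are named per the submitters' processing notes; no source used here states the counting tool or its strand setting. The transcript with the highest mean count stood for its gene: 42361 transcripts gave 25160 genes, named through RefSeq GRCm38.p6 for 42203 transcripts and GENCODE for 65 more. The 93 others kept their identifiers.

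Counts were rounded, filtered with filterByExpr and scaled by TMM. All 24 libraries were fitted with 6 group means in edgeR 4.0.16 (R 4.3.3; glmQLFit, robust, and glmQLFTest; 18 residual degrees of freedom), with Benjamini-Hochberg adjustment over 12198 genes, and the line contrast before LPS and its difference from 1 h and 5 h were tested two-sided. Standard errors are the absolute log2 fold change over the square root of F. The fit was tested on simulated counts.

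The comparison, gene lists and named genes were chosen with earlier results of these data known. Named were the 20 largest changes in each direction (called, at least 10 CPM, no overlap), the 6 largest changes each way above 500 CPM, a panel of 10 genes, up to 6 called members of each list described with the smallest adjusted p and its defining members, called or not, and genes whose line effect differed after LPS. Alternatives were DESeq2 1.42.0 (Wald test; size factors), other filters, other sets of libraries, the mean over transcripts and the omission of a ribosomal RNA precursor that held 0.43 to 1.67% of the counts. Results on some named genes are not reported here.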

Additional observations from a re-analysis of the deposited data

Results flagged for a closer look

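The line effect after LPS differed from that before LPS, by the test of the difference itself, for 10 of the 40 genes named by size, 11 results in all. Among all genes tested, the difference was called for 1.13% at 1 h and 7.88% at 5 h. The 40 genes were selected by the size of the effect before LPS, which each difference subtracts. That selection favours a smaller effect later. At 5 h the differences on the log2 scale (line effect at 5 h minus that at 0 h) were -2.096 for Pilra, -1.25 for Gja1, -1.24 for Zcwpw1, -0.59 for Bank1, 0.61 for Tcam1, 1.08 for Mgl2 and 1.92 for Spire2 among the higher genes before LPS, and 0.65 for Tbc1d9, 0.77 for Il7r and 2.72 for Scg2 among the lower genes. At 1 h the difference was called for Scg2 (2.30, adjusted p = 0.0434). Zcwpw1 and Pilra overlap on the genome and may share reads.

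In 30 of 429 groups of 4 libraries (6.99%), each a gene in 1 line, 1 library lay far from the other 3 by Dixon's criterion, which flags about 1 in 20 by chance. In the Nur77 line, replicate 4 was the highest for Fos (4.93 CPM), Ly86 (92.3 CPM), Naip5 (32.2 CPM), Il1b (0.454 CPM) and Il6 (0.130 CPM) and the lowest for Epha2 (1.82 CPM), Map3k14 (31.9 CPM) and Nefh (94.2 CPM). Replicate 1 was the highest for Fnip2 (341 CPM) and Sirpa (620.0 CPM) and the lowest for Cxcl2 (9.99 CPM), replicate 2 the highest for Cd200r1 (16.1 CPM) and Src (5.50 CPM) and the lowest for Tlr2 (229 CPM), and replicate 3 the lowest for Eda2r (2.14 CPM), Gm9732 (25.3 CPM) and Ifngr1 (63.3 CPM). In the GFP line, replicate 1 was the lowest for Ccbe1 (29.6 CPM), Ccl2 (17.4 CPM), Dab2 (406 CPM), Galc (184 CPM) and Tnip3 (41.9 CPM). Replicate 4 was the highest for Gadd45a (34.3 CPM), H2bc4 (20.05 CPM) and Hdac2 (164 CPM) and the lowest for Cd14 (537 CPM), Cst3 (399 CPM) and Naip6 (9.17 CPM). Replicate 2 was the highest for Tcirg1 (339 CPM) and replicate 3 the highest for Ppargc1a (15.99 CPM).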

How the results depend on the processing

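The number of genes called between the lines before LPS stayed within 1.5 times of 4870 in all 33 alternatives, from 4196 (without Nur77 replicate 4) to 5791 (8 libraries with replicates 1 and 3 against 2 and 4 as a term, chosen after seeing the data), with 4973 calls by the DESeq2 Wald test. Among 215 reported genes, 213 kept their direction and side of the threshold in every alternative that tested them: Nr4a3, Il1b, Il6, Pilrb1, Pilrb2 and Rragd were not tested in the fits of the 8 libraries, Rragd not at 1 CPM, and Ccl2 and Ccr1 had no adjusted p from DESeq2. The exceptions, with no change of direction, were Ccl2 (lost in 8 settings) and Csf1r (gained in 3). Leaving out 1 of the 24 libraries (those after LPS other than Nur77 1 h replicate 2 chosen after seeing the data, as was the omission of chromosome 12) gave 4196 to 5460 calls, 2010 to 2799 of them higher and 2172 to 2661 lower, with 289 to 329 genes higher and 600 to 635 lower by at least 1. For the difference of the line effect at 1 h, leaving out 1 library gave 74 to 1597 genes, DESeq2 499 and the replicate block 91; at 5 h leaving out 1 library gave 725 to 1681. The cause was not tested. The labels give both lines replicate numbers 1 to 4, and the deviations of same-numbered libraries before LPS correlated at 0.13, 0.17, -0.01 and 0.15. For 2 of the 4 numbers the best match was their own, so the numbers were not taken as pairs. Nur77 replicates 1 and 3 matched GFP replicates 3 and 1 best (0.20 and 0.10). These matches follow the split of replicates 1 and 3 from 2 and 4, which the main fit does not model. A replicate block gave 4707 calls before LPS, 2379 higher and 2328 lower. Read on the gene's strand alone, 2.28% of all tested genes, 2.101% of the higher and 3.52% of the lower genes held the AP-1 motif. The NBRE was then held by 0.567% of all tested genes, 4 of 238 higher genes (1.68%) and 1 of 454 lower genes (0.220%). Precision was lower for genes of low abundance: the median SE was 0.44 for genes under 1 CPM and 0.07 for the 62 most abundant genes.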

Other observations

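Gene groups not described above also differed between the lines before LPS. Of 23 tested axon guidance genes, 5 were higher and 8 lower, the lower ones by as much as -2.91. Of the higher ones beside Neo1, the semaphorin Sema6d averaged 7.21 CPM in the Nur77 line and 0.881 CPM in the GFP line (log2 fold change 3.14), the netrin receptor Unc5b 6.39 CPM in the Nur77 line and 1.71 CPM in the GFP line (1.88), and the ephrin receptor Epha2 2.34 CPM in the Nur77 line and 0.707 CPM in the GFP line (1.74). The semaphorin coreceptor Nrp1 was higher as well (0.75). Of the lower ones, the semaphorin receptor Plxna1 had the smallest adjusted p, at 81.8 CPM in the Nur77 line and 192 CPM in the GFP line (-1.23). Of 8 tested neuronal and neurosecretory genes, 2 were higher and 3 lower (median -0.26). Their summed level was 106 to 111 CPM in the Nur77 libraries, of which Nefh made up 98.3 CPM on average, and 66.2 to 82.0 CPM in the GFP libraries, of which Cpe made up 52.1 CPM and Scg2 15.1 CPM.

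Of 26 tested integrin and adhesion genes, 6 were higher and 11 lower, or 7 lower without Nur77 replicate 4. Of the members described above, Itgax, Itgb3, Cd44 and Itgb2 were lower, and Itga4 (1.48) and Itgav (1.44) were higher. Of 24 tested genes of matrix and pericellular proteases and their inhibitors, 5 were higher and 9 lower, or 3 higher without GFP replicate 4, without Nur77 replicate 2, 3 or 4 or without a filter. Beside Ece1, Cpe and Mmp12, the metalloproteases Adam8 (-1.45) and Adamts1 (-1.69) and the inhibitor Timp2 (-0.82) were lower.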
